A study of Homo sapiens with 22 samples.

Results

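PSF, also called SFPQ, was crosslinked to RNA and immunoprecipitated from LNCaP cells, an androgen-responsive human prostate cancer line, and the recovered RNA was sequenced (CLIP-seq). The study deposited 4 lists of PSF-CLIP peaks among its 22 samples. A pair of lists is named Anti-PSF in the deposited files and PSF-CLIP in the sample titles, and the other pair is named Anti-PSF-m and PSF-CLIP2. Each pair holds 1 list after 10 nM dihydrotestosterone (DHT) and 1 list after ethanol vehicle, both for 24 h. The members are all peaks of these 4 lists, 69059 in all, chosen by the name of the list alone. The Anti-PSF DHT list holds 23580 peaks, the Anti-PSF vehicle list 24242, the Anti-PSF-m DHT list 13546 and the Anti-PSF-m vehicle list 7691. The labels give PSF as the antibody target of both pairs, and what the letter m stands for is not stated in the sources used here. All cells spent 3 days in medium with 2.5% charcoal/dextran-stripped serum before the hormone, and they were irradiated with 150 mJ/cm2 of ultraviolet light. Each combination has 1 library, and nothing in the labels says that the libraries came from separate cultures. The DHT and vehicle lists of a pair are therefore not replicates of 1 treatment.

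PSF is a nuclear RNA-binding protein of the DBHS family, together with NONO and PSPC1. It takes part in splicing and transcription, and it is a core protein of paraspeckles, nuclear bodies that form on the long noncoding RNA NEAT1. MALAT1 is an abundant noncoding RNA of nuclear speckles, which lie next to paraspeckles. In a CLIP experiment ultraviolet light links a protein to the RNA it touches, nuclease trims the RNA, and regions where reads pile up are called as peaks. Nuclear RNA-binding proteins often cross-link to introns, because unspliced RNA is found in the nucleus.

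The pairs differed in where their peaks lay and in the sequence under them. The Anti-PSF peaks were wide, lay mostly in introns and exons, and recurred between the DHT and vehicle lists. The Anti-PSF-m peaks were narrow, and close to 50% of them lay in sequence that occurs many times in the genome. MALAT1, the 5′ part of NEAT1 and the first coding exon of SFPQ itself carried some of the highest-ranked Anti-PSF-m peaks and no Anti-PSF peak. With 2 lists against 2, an exact permutation test (two-sided) cannot give a p below 0.333, so every comparison is given by its values without a call of significance. The Anti-PSF-m vehicle list stood apart from the other 3 in its size and its sequence content, so values are given for the DHT and the vehicle lists side by side.

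The sequences that carried these differences are shown first, as the midpoint of a peak and 50 bases to either side of it on the plus strand of hg19 (GRCh37). The peaks themselves have no strand. Regions were taken by rank, as the 4 highest-ranked regions held by both lists of a pair and by no list of the other. Among regions held by both Anti-PSF lists and by no Anti-PSF-m list, the highest-ranked was in an intron of SGSM2 (chr17:2258060-2259918, rank 35 in DHT and 84 in vehicle). The next were in LRRFIP1 (chr2:238671170-238673075, ranks 109 and 171), which is coding exon in GENCODE and intron in the deposited rows, and in an intron of ASAP2 (chr2:9445223-9446195, ranks 317 and 185). The SGSM2 and ASAP2 windows hold a short unit that recurs in tandem.
SGSM2 intron, chr17:2258939-2259039: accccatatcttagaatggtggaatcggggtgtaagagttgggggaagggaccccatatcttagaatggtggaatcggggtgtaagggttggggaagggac
LRRFIP1 exon, chr2:238672072-238672172: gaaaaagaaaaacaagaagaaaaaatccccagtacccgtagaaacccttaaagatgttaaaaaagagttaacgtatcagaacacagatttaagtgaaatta
ASAP2 intron, chr2:9445659-9445759: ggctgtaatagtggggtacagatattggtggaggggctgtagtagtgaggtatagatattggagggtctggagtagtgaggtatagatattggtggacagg

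Among regions held by both Anti-PSF-m lists and by no Anti-PSF list, the highest-ranked lay in exons. They were in MALAT1 (chr11:65266509-65273499, rank 2 in DHT and 3 in vehicle), in NEAT1 (chr11:65190276-65194033, ranks 12 and 85) and in SFPQ (chr1:35657824-35658657, ranks 43 and 457). The fourth was in ZNF638 (chr2:71658720-71658873, ranks 177 and 336), and its window is an Alu element, the most numerous interspersed repeat of primate genomes. The windows of the exonic regions follow.
MALAT1 exon, chr11:65269954-65270054: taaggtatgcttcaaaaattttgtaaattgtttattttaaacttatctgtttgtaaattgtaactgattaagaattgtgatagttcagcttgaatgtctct
NEAT1 exon, chr11:65192104-65192204: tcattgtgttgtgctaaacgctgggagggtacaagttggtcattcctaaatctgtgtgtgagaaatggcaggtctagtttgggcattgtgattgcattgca
SFPQ coding exon, chr1:35658190-35658290: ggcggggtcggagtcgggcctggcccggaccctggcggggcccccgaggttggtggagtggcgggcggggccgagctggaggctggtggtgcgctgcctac

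The regions held by all 4 lists were headed by introns and noncoding RNA. FAM120B (chr6:170707328-170709479) ranked 11 and 16 in the Anti-PSF DHT and vehicle lists and 1 and 38 in the Anti-PSF-m ones. TP73-AS1, a noncoding RNA (chr1:3655606-3656981), ranked 3, 4, 8 and 53 in the same order, and RPH3AL (chr17:91993-94307) ranked 18, 26, 3 and 73. These 3 windows are tandem repeats of a short unit, as in SGSM2. A MIR99AHG intron (chr21:17766378-17771104), ahead of RPH3AL by mean rank (9, 13, 14 and 47), has a midpoint window without such a unit and is not shown. Tandem arrays were thus found both in shared regions and in regions of the Anti-PSF lists alone. FAM120B, TP73-AS1 and MIR99AHG had the same score of 3100 in the Anti-PSF DHT list. Peaks of equal score were ranked by chromosome name and position, so the order among such peaks is arbitrary.
FAM120B intron, chr6:170708353-170708453: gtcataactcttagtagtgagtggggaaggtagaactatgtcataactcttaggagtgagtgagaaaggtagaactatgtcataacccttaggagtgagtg
TP73-AS1, chr1:3656243-3656343: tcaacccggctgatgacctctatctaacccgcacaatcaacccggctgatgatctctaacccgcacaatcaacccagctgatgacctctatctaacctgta
RPH3AL intron, chr17:93100-93200: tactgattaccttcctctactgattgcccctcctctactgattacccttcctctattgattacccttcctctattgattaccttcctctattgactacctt

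The sequence classes that differed most between the pairs were found by counting short words. Every 12-mer in the windows around the midpoints was counted on both strands, and the 5 with the largest difference in mean share in each direction were kept. Shares of these 12-mers are a description, since the same shares chose them. The window below is that of the highest-ranked Anti-PSF-m vehicle peak with the satellite unit GGAAT, and capitals mark GGAAT in tandem.
Anti-PSF-m vehicle, GGAAT satellite, outside genes, chr10:42597806-42597906: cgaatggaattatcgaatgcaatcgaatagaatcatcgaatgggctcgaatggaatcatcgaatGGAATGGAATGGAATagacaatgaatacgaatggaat

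The pairs differed in peak width before any gene was considered. The median peak was 410 bases wide in the Anti-PSF DHT list and 491 in the Anti-PSF vehicle list, against 158 in the Anti-PSF-m DHT list and 139 in the Anti-PSF-m vehicle list. Together the peaks covered 12.1 and 14.6 Mb in the Anti-PSF lists, and 2.67 and 1.43 Mb in the Anti-PSF-m lists. Peaks under 150 bases made up 1.01% and 0.149% of the Anti-PSF lists, against 43.2% and 60.1% of the Anti-PSF-m lists. Width and pair therefore moved together, and at equal list size (the 7691 highest-scoring peaks of each list) the medians were 606 and 720 bases against 157 and 139. The GC content of these windows around all midpoints had a median of 43.6% in both Anti-PSF lists, 49.5% in the Anti-PSF-m DHT list and 43.6% in the Anti-PSF-m vehicle list, against a genome mean of 40.9%.

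Peaks were assigned to gene parts by the position of their midpoint in the rows of the deposited LNCaP RNA files, which list genes, introns and intergenic intervals. Exons meant positions inside a gene and outside the listed introns of every gene, so an exon inside another transcript's intron counted as intron. Introns without reads are absent from these rows, so positions in them counted as exons. The exon shares by these rows therefore include such introns, and GENCODE v44lift37 was used as a second annotation. Exons held 10.7% and 10.1% of the Anti-PSF DHT and vehicle peaks, against 5.43% and 3.38% of the Anti-PSF-m peaks and 6.86% of the genome. Introns held 59.6% and 61.4% of the Anti-PSF peaks, against 49.4% and 27.9% of the Anti-PSF-m peaks and 27.9% of the genome. By these rows both Anti-PSF lists were thus above the genome in both gene parts. The Anti-PSF-m vehicle list had the intron share of the genome, 27.9%, which counts only introns with reads. Outside genes lay 29.7% of the Anti-PSF DHT peaks (95% exact Clopper-Pearson interval 29.1 to 30.3, covering counting error only) and 28.5% of the Anti-PSF vehicle peaks (27.9 to 29.1). The same share was 45.2% in the Anti-PSF-m DHT list (44.4 to 46.1) and 68.7% in the Anti-PSF-m vehicle list (67.6 to 69.7), against 65.2% of the genome. The means were 29.1% over the Anti-PSF lists and 56.9% over the Anti-PSF-m lists, a difference of -27.9 percentage points with no overlap between the pairs (exact permutation p = 0.333, n = 2 lists each). The difference was -15.5 points between the DHT lists alone and -40.2 between the vehicle lists alone.

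As a ratio, though not in percentage points, the pairs differed more in coding sequence than in introns. By GENCODE, 5.45% and 5.25% of the Anti-PSF midpoints lay in coding exons, against 0.768% and 0.221% of the Anti-PSF-m midpoints and 1.25% of the genome. Exons of any kind held 16.3% and 15.9% of the Anti-PSF peaks, against 7.18% and 2.95% of the Anti-PSF-m peaks and 5.47% of the genome. The Anti-PSF-m DHT list was thus above the genome in exons by GENCODE and below it by the deposited rows. The intron share by GENCODE was 67.1% and 68.5% in the Anti-PSF lists. It was 65.5% in the Anti-PSF-m DHT list and 46.4% in the Anti-PSF-m vehicle list, against 56.5% of the genome. The Anti-PSF-m vehicle list was thus below the genome in introns here, and the other lists were above it. With this annotation the DHT lists of the pairs were close in their intron share. They differed in exons and outside genes (16.6% for Anti-PSF DHT and 27.3% for Anti-PSF-m DHT, against 38.1% of the genome). Among midpoints in introns, 5.55% and 5.78% of the Anti-PSF ones lay within 200 bases of an exon edge, against 3.82% and 2.55% of the Anti-PSF-m ones and 6.47% of intronic bases. Within 1000 bases lay 27.8% and 28.4% of the Anti-PSF ones, against 26.2% and 21.2% of the Anti-PSF-m ones and 23.3% of intronic bases. All 4 lists were thus below the intronic background within 200 bases, and 3 were above it within 1000 bases.

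**Figure D1:**
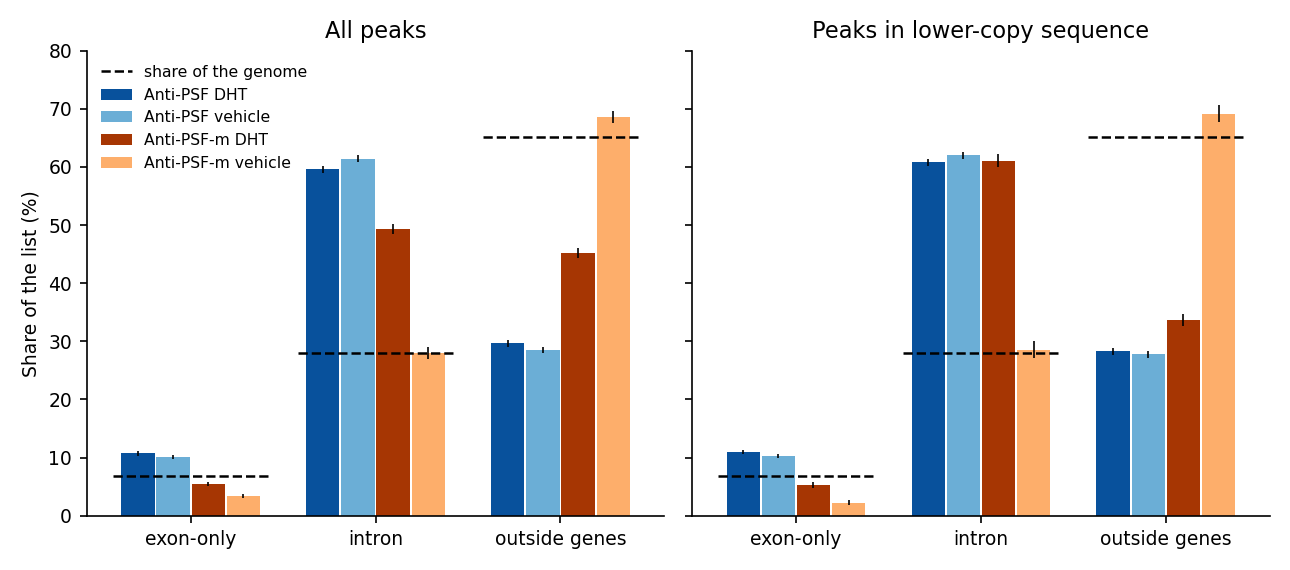
Share of each list (%) with its midpoint in exons, in introns or outside genes by the deposited rows, for all peaks (left) and for peaks in lower-copy sequence (right); bars are lists, error bars are 95% Clopper-Pearson intervals and dashed lines are the share of the genome. With all peaks both Anti-PSF lists stand at or under 29.7% outside genes and both Anti-PSF-m lists at or above 45.2%; in lower-copy sequence the Anti-PSF-m DHT list is at 33.6%.

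The pairs also differed in how often the sequence under their peaks occurs in the genome. A window was called high-copy when at least 50% of its 14-mers occur 1000 or more times in the genome, and lower-copy otherwise, so that repeats with fewer copies than that count as lower-copy. High-copy windows made up 4.82% of the Anti-PSF DHT list and 2.92% of the Anti-PSF vehicle list, against 44.6% of the Anti-PSF-m DHT list, 51.5% of the Anti-PSF-m vehicle list and 11.5% of genome windows. Windows moved by 1000 bases along the chromosome gave 10.4%, 10.0%, 12.8% and 19.20% in the same order. The Anti-PSF lists were thus under the genome and the Anti-PSF-m lists above it at the peak, and 3 of the 4 lists were near the genome at 1000 bases from it. The highest-ranked peaks were not of this kind, since among the top 100 of each list 0%, 0%, 0% and 3% were high-copy, in the order of Anti-PSF DHT, Anti-PSF vehicle, Anti-PSF-m DHT and Anti-PSF-m vehicle. Among the top 1000 the shares were 0.8% and 0.6% for Anti-PSF against 11.3% and 19.6% for Anti-PSF-m, and at equal list size they were 1.18% and 1.03% against 41.3% and 51.3%.

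The 12-mers that were more frequent in the Anti-PSF-m lists belong to the Alu repeat. TCTCTACTAAAA was in 1.10% and 0.425% of the Anti-PSF windows, against 17.2% and 11.8% of the Anti-PSF-m windows and 1.44% of genome windows. At 1000 bases from the midpoint it was in 1.65% and 1.53% of the Anti-PSF windows and in 2.05% and 1.18% of the Anti-PSF-m windows. At least 1 of the 5 most different 12-mers of this direction (the others are AAAAATACAAAA, GCCTCAGCCTCC, GAGGCAGGAGAA and GCTGGGATTACA) was in 2.63% and 1.25% of the Anti-PSF windows, against 36.98% and 25.5% of the Anti-PSF-m windows. Of those 4998 and 1955 Anti-PSF-m windows, 98.9% and 99.0% were high-copy. The high-copy windows numbered 6030 and 3949, so a part of them, larger in the vehicle list, held none of the 5. The GGAAT satellite, a repeat of pericentromeric DNA, was concentrated in a single list, with 3 units in a row in 8 and 6 Anti-PSF windows, in 18 Anti-PSF-m DHT windows and in 570 Anti-PSF-m vehicle windows. The last number is 7.43% of that list, against 0.0139% of genome windows, and 98.6% of the 570 lay outside genes. At 1000 bases from the midpoint 5.29% of the windows of that list still held it, so most of this excess was not confined to the peak.

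The 12-mers that were more frequent in the Anti-PSF lists came from repeats with far fewer copies than Alu. GTCAGGGAAGCA was in 294 and 220 Anti-PSF windows (1.25% and 0.908%) and in 133 and 36 Anti-PSF-m windows (0.984% and 0.470%). Only 1319 genome windows hold it (0.00466%), so it was 268 and 195 times as frequent as in the genome in the Anti-PSF lists, and 211 and 100.8 times in the Anti-PSF-m lists. This sequence was therefore far above the genome in all 4 lists, and the pairs differed less in it than either differed from the genome. AGAGTGCCTAAG, held by 686 genome windows, was in 172 and 203 Anti-PSF windows, against 10 Anti-PSF-m DHT windows and 62 Anti-PSF-m vehicle windows. As shares these were 0.730% and 0.838% against 0.0740% and 0.809%, so the difference between the pairs lay in the DHT lists. At least 1 of the 5 12-mers of this direction (with CTGTTTTTCTCC, GAATTGGGAGGA and AAGGAGGCTTTG) was in 2.83% and 2.56% of the Anti-PSF windows and in 1.30% and 1.46% of the Anti-PSF-m windows. At 1000 bases away the shares were 0.637%, 0.541%, 0.570% and 0.654%. A window can hold several of these 12-mers, so they are not separate findings.

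Outside the high-copy windows, the lists had short sequences in common. The hexamer CTATCC was in 5.87% and 5.92% of the lower-copy Anti-PSF windows and in 6.47% and 6.51% of the lower-copy Anti-PSF-m windows, against 2.74% of lower-copy genome windows. AGAGAG was in 17.1% and 16.7% against 18.1% and 15.5%, with 8.57% in the genome. Both were chosen as hexamers with a share of at least 1.8 times the genome in all 4 lists, so these shares describe the choice.

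Width and copy number were then read together. In the class of 200 to under 300 bases, which all 4 lists fill, 9.64% and 4.92% of the Anti-PSF peaks were high-copy, against 19.3% and 19.1% of the Anti-PSF-m peaks. In the class of 150 to under 200 bases the shares were 7.97% and 6.31% against 50.9% and 50.5%. From 300 to under 500 bases they were 5.08% and 3.61% against 1.48% and 7.27%, and from 500 bases 1.38% and 1.77% against 0.565% and 3.23%. Below 300 bases both Anti-PSF-m lists were thus above both Anti-PSF lists, and from 300 bases the Anti-PSF-m DHT list was below them and the Anti-PSF-m vehicle list above them. The contrast in gene part was not uniform: outside genes lay 33.1% and 33.1% of the Anti-PSF peaks of 200 to under 300 bases, 33.4% of the Anti-PSF-m DHT peaks and 65.1% of the Anti-PSF-m vehicle peaks. From 300 to under 500 bases the shares were 31.7% and 29.6% against 18.4% and 62.7%. The Anti-PSF-m DHT list was thus close to the Anti-PSF lists in the narrower of these classes and below them in the wider one, and the Anti-PSF-m vehicle list was above them in both. Among peaks in lower-copy windows, 28.3% and 27.7% of the Anti-PSF ones lay outside genes, against 33.6% and 69.2% of the Anti-PSF-m ones. Exons still held 10.9% and 10.3% of the lower-copy Anti-PSF peaks and 5.30% and 2.23% of the lower-copy Anti-PSF-m peaks.

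**Figure D2:**
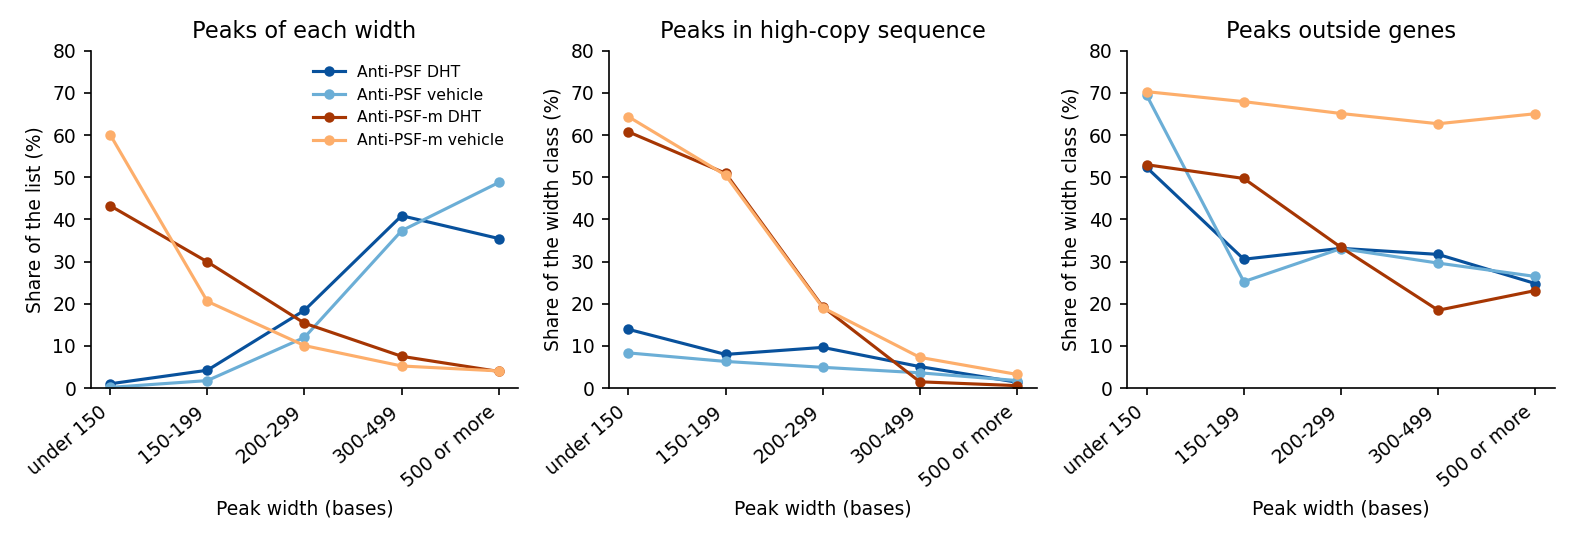
Share of each list in 5 classes of peak width (left), and within each class the share in high-copy sequence (middle) and outside genes (right); points are lists and the horizontal axes give peak width in bases. Among peaks of 200 to under 300 bases, 33.1%, 33.1% and 33.4% lie outside genes in the Anti-PSF DHT, Anti-PSF vehicle and Anti-PSF-m DHT lists, and 65.1% in the Anti-PSF-m vehicle list.

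Counted by a shared base, the Anti-PSF lists held most of their peaks in common, and the Anti-PSF-m lists shared more with the Anti-PSF lists than with each other; the second order depended on how an overlap was counted. Of the Anti-PSF DHT peaks 62.3% overlapped an Anti-PSF vehicle peak by at least 1 base, and 58.0% of the Anti-PSF vehicle peaks overlapped an Anti-PSF DHT peak. Of the Anti-PSF-m DHT peaks 9.13% overlapped an Anti-PSF-m vehicle peak, and 16.6% the other way round. Wider peaks meet by position more easily, and the Anti-PSF lists cover more of the genome. Of the Anti-PSF-m DHT peaks 42.7% overlapped the Anti-PSF DHT list, and of the Anti-PSF-m vehicle peaks 24.8% overlapped the Anti-PSF vehicle list. With midpoints within 100 bases, 23.4% of the Anti-PSF-m DHT peaks matched the Anti-PSF DHT list and 7.55% the Anti-PSF-m vehicle list, whereas 10.45% of the Anti-PSF-m vehicle peaks matched the Anti-PSF vehicle list and 13.3% the Anti-PSF-m DHT list. When at least 50% of both peaks had to be shared, the Anti-PSF-m lists averaged 6.25% with the Anti-PSF list of their treatment and 9.05% with each other. The order of these shares thus turned for the vehicle list by midpoints and for the mean by the stricter overlap. Seen from the longer lists, 21.9% of the Anti-PSF DHT peaks and 6.90% of the Anti-PSF vehicle peaks overlapped the Anti-PSF-m list of the same treatment.

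Of the 5782 Anti-PSF-m DHT peaks and 1905 Anti-PSF-m vehicle peaks that overlapped the Anti-PSF list of their treatment, 5671 and 1857 were in lower-copy sequence. In lower-copy windows 75.8% of the Anti-PSF-m DHT peaks overlapped the Anti-PSF DHT list and 49.9% of the Anti-PSF-m vehicle peaks overlapped the Anti-PSF vehicle list. In high-copy windows the shares were 1.64% and 0.962%, below the 2.80% and 4.28% that the Anti-PSF-m lists shared with each other there. Of the overlapping Anti-PSF-m peaks, 88.3% (DHT) and 95.8% (vehicle) lay wholly inside a single Anti-PSF peak. The enclosing Anti-PSF peaks had a median width of 612 and 817 bases, and the Anti-PSF-m peaks inside them 200 and 162 bases. Midpoints were a median of 87 and 127 bases apart. A large part of the lower-copy Anti-PSF-m peaks were therefore narrower calls at positions that the Anti-PSF lists also held. The GGAAT windows were an exception, since 1.05% of the 570 in the Anti-PSF-m vehicle list overlapped the Anti-PSF vehicle list.

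**Figure D3:**
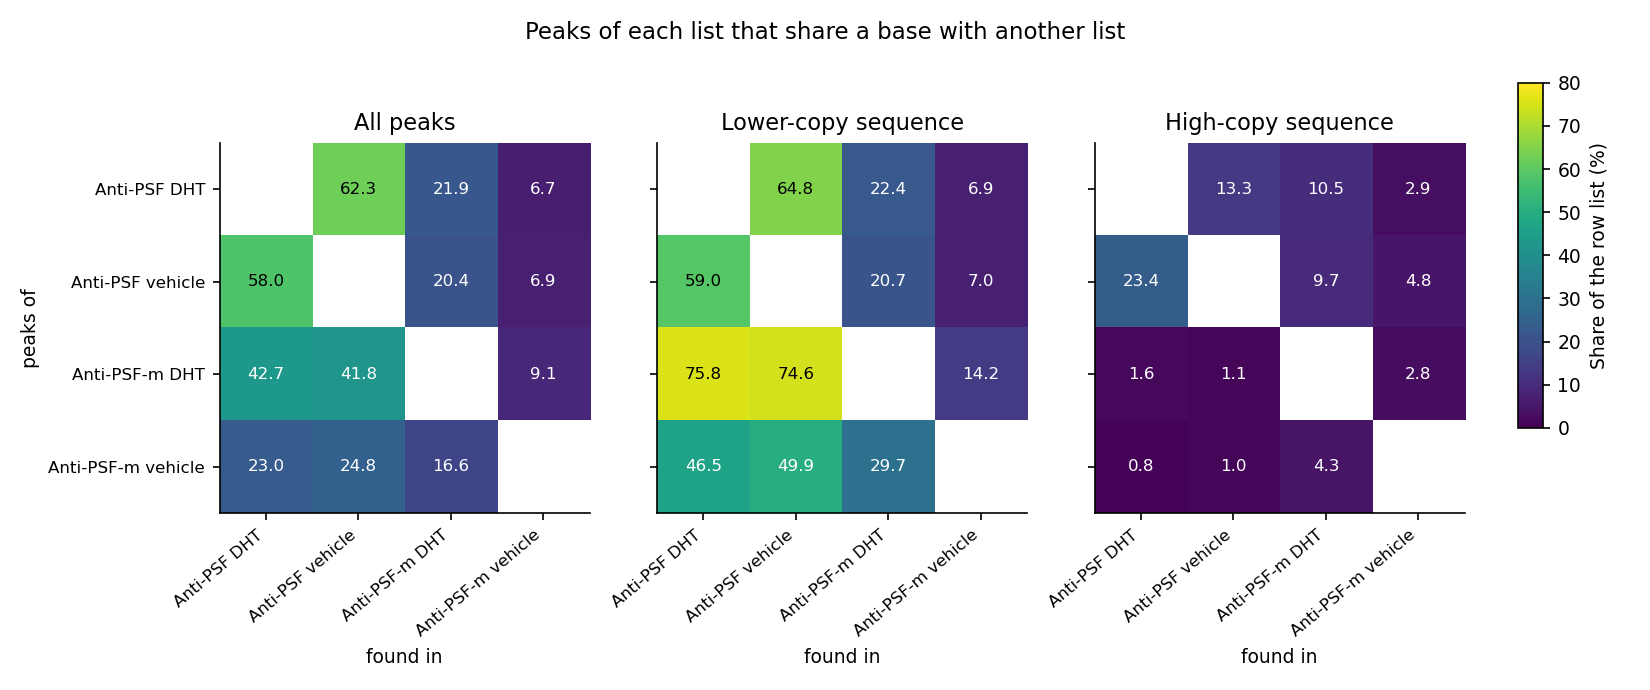
Share (%) of the peaks of the list in each row that overlap, by at least 1 base, a peak of the list in each column, for all peaks, lower-copy and high-copy sequence. In lower-copy sequence the Anti-PSF-m DHT row reaches 75.8% in the Anti-PSF DHT column and 14.2% in the Anti-PSF-m vehicle column.

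Peaks were then sorted by which lists held them. Those in both Anti-PSF lists and in no Anti-PSF-m list numbered 9627 in the Anti-PSF DHT list (40.8% of it) and 9084 in the Anti-PSF vehicle list (37.5%). Of them 61.1% and 62.0% lay in introns, and 0.925% and 1.201% were high-copy. Peaks in both Anti-PSF-m lists and in no Anti-PSF list numbered 215 (DHT, 1.59% of the list) and 214 (vehicle, 2.78%), and 70.7% and 70.1% of them were high-copy. The class held by a single pair was thus mostly intronic for Anti-PSF and mostly high-copy for Anti-PSF-m. Peaks of the Anti-PSF-m lists that no other list held were 51.7% (DHT) and 71.2% (vehicle) of these lists, and 82.4% and 68.5% of them were high-copy. Peaks in all 4 lists numbered 980 and 1004 in the Anti-PSF lists, and 952 and 991 in the Anti-PSF-m lists. They were wider than their whole lists, with medians of 778 and 984.5 bases in the Anti-PSF lists, and 277.5 and 208 bases in the Anti-PSF-m lists. Their median score was 257 and 337 against 79.6 and 87.9 for the whole Anti-PSF lists, 100.7 against 66.4 for the Anti-PSF-m DHT list, and 73.2 against 71.4 for the Anti-PSF-m vehicle list. They thus stood high in 3 of the lists and near the middle of the Anti-PSF-m vehicle list.

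Genes were compared by whether a peak midpoint fell in their transcribed span. Of 17459 genes in the deposited files, 6165 (35.3%) carried a peak in the Anti-PSF DHT list and 6383 (36.6%) in the Anti-PSF vehicle list, against 4155 (23.8%) in the Anti-PSF-m DHT list and 1834 (10.505%) in the Anti-PSF-m vehicle list. Genes with peaks in both Anti-PSF lists and in neither Anti-PSF-m list numbered 2029, which is 11.6% of all genes. The reverse, both Anti-PSF-m lists and neither Anti-PSF list, held for 120 genes (0.687%), and 946 genes had peaks in all 4 lists. At equal list size the counts were 781 (4.47%) and 184 (1.05%), with 3132, 3073, 2654 and 1834 genes carrying a peak. The count of Anti-PSF genes was therefore smaller, and that of Anti-PSF-m genes larger, once the lists were of 1 size.

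Restricting the peaks by copy number lowered the second count. Lower-copy windows alone were an alternative chosen after the data were seen. With them 2528 genes (14.5% of all genes) had peaks in both Anti-PSF lists only and 6 (0.0344%) in both Anti-PSF-m lists only. The restriction left 22419 and 23518 Anti-PSF peaks against 7485 and 3718 Anti-PSF-m peaks, so it also widened the difference in list size. These counts were not repeated at equal list size, so the part of list size in them is not known. The 6 were CCDC180, CTBP1-AS, DLST, MALAT1, SERHL2 and WASH3P. Of these MALAT1 had the highest input RNA level, and CTBP1-AS is an antisense noncoding RNA of the CTBP1 locus. The 120 genes of the Anti-PSF-m pair were long, with a median span of 150 kb against 36.4 kb for the 2029 genes of the Anti-PSF pair and 23.5 kb for all genes. CTBP1-AS also carried 1 Anti-PSF DHT peak, in high-copy sequence, and the other 5 of the 6 were among the 120.

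RNA level and recovery in the separate PSF RNA immunoprecipitation (RIP-seq) of LNCaP cells were not used to make the classes. Genes with peaks in the Anti-PSF lists alone had a median input level of 7.62 (DHT) and 7.25 (vehicle) RPKM, which is reads per kilobase of exon scaled to the library total. Genes of the Anti-PSF-m lists alone were at 0.287 and 0.306, and all genes at 4.03 and 3.98. Among genes with 10 or more input reads in both treatments the medians were 9.59 and 9.10 for the Anti-PSF genes, 5.46 and 4.25 for the Anti-PSF-m genes and 9.81 and 9.29 for all genes. The Anti-PSF genes were thus above all genes without this filter and slightly below them with it, and the Anti-PSF-m genes were below them in both. The median log2 ratio of PSF-RIP over input (CPM, prior count 2) was 0.28 and 0.38 for the Anti-PSF genes, 0.43 and 0.41 for the Anti-PSF-m genes and 0.26 and 0.37 for all genes. The Anti-PSF-m medians equal the value that 1 PSF-RIP read and 0 input reads give with this prior, so they do not measure recovery. The ratio was therefore also read with this filter. There the medians were 0.28 and 0.36 for 1677 Anti-PSF genes, 0.46 and 0.47 for 33 Anti-PSF-m genes and 0.27 and 0.33 for all 10151 genes. Averaged over both treatments and without the filter, the RIP median of the Anti-PSF genes was 0.02 (log2) above that of all genes. RIP recovery thus separated the Anti-PSF genes little from the rest. With the filter, the 33 Anti-PSF-m genes stood further above all genes than the Anti-PSF genes did, in both treatments. This difference was not tested.

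MALAT1 and NEAT1, the nuclear noncoding RNAs introduced above, had high-ranked peaks in the Anti-PSF-m lists. MALAT1 had 0 peaks in both Anti-PSF lists and 1 peak in each Anti-PSF-m list, and that peak spanned 79.89% (DHT) and 79.99% (vehicle) of the gene. Its input level was 1823 and 1816 in the same unit, and PSF-RIP recovered it at a log2 ratio over input of 2.22 (DHT) and 2.15 (vehicle). NEAT1 had 0 (DHT) and 1 (vehicle) Anti-PSF peaks, against 7 and 3 Anti-PSF-m peaks. The Anti-PSF vehicle peak ranked 18959 of 24242, was 8406 bases wide and lay over the 3′ part of the gene. Peaks covered 0% and 36.9% of NEAT1 in the Anti-PSF lists, and 48.0% and 21.3% in the Anti-PSF-m lists. The highest-ranked NEAT1 peaks of both Anti-PSF-m lists began at the 5′ end, where no Anti-PSF peak lay. In PSF-RIP NEAT1 was below input, with log2 ratios of -0.84 and -0.67. Of the pair, MALAT1 was thus above input and NEAT1 below it. MALAT1 overlaps the antisense gene TALAM1, and without strand the peaks cannot be told apart.

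SFPQ, the gene of PSF itself, had peaks in all 4 lists at partly different places. It carried 4 and 3 Anti-PSF peaks and 5 and 3 Anti-PSF-m peaks, which covered 15.9%, 12.4%, 12.5% and 7.80% of its 16.8 kb. A pair of intronic positions, near chr1:35647792-35648101 and chr1:35651377-35651548, was under a peak in every list. The peak in the first coding exon, whose sequence stands above, ranked 43 and 457 in the Anti-PSF-m lists, and the Anti-PSF lists had none there. Conversely a coding-exon peak at chr1:35654525-35655094 was in both Anti-PSF lists, at ranks 9586 and 17586, and in no Anti-PSF-m list. PSF-RIP recovered SFPQ RNA at log2 ratios of 1.30 and 1.37. Of its DBHS partners, NONO had no peak in any list, while PSPC1 had 3 and 9 Anti-PSF peaks and 4 and 1 Anti-PSF-m peaks.

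**Figure D4:**
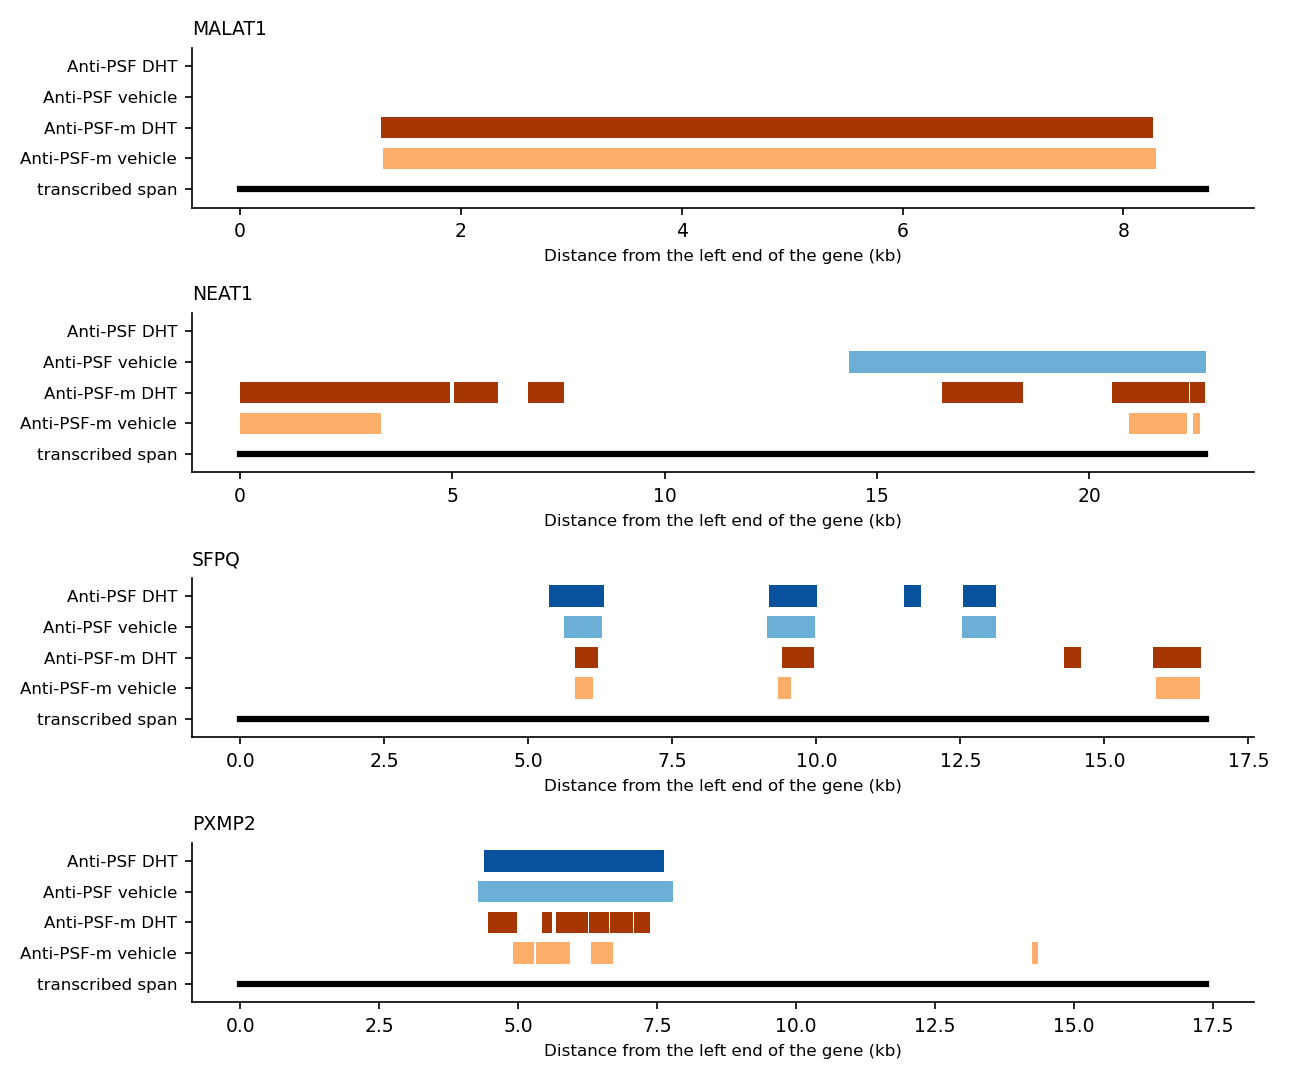
Peaks of the 4 lists along MALAT1, NEAT1, SFPQ and PXMP2, as distance in kb from the left end of each gene; bars are peaks to scale and the black line is the transcribed span, with MALAT1 and NEAT1 transcribed left to right and SFPQ right to left. MALAT1 shows a single bar over 79.89% and 79.99% of the gene in the Anti-PSF-m lists and none in the Anti-PSF lists, and the wide PXMP2 peak of the Anti-PSF lists is broken into several in the Anti-PSF-m lists.

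The share of each list that fell in a gene was compared as a log2 ratio, Anti-PSF over Anti-PSF-m, with 0.5 peaks added to each count. Since the Anti-PSF lists are longer, a gene with 0 peaks in every list, such as NONO, has ratios of -0.80 (DHT) and -1.66 (vehicle). The limit of 10 peaks over the 4 lists is reached more easily through the longer Anti-PSF lists, so the counts that follow describe the genes kept and support nothing. Of 1204 such genes, 227 (18.9%) had a ratio of at least 1 in both treatments and 19 (1.58%) had a ratio of at most -1 in both. The highest ratio belonged to VPS41, a gene of endosome to lysosome transport, with 10 and 12 Anti-PSF peaks and 0 and 0 Anti-PSF-m peaks over 185 kb (ratios 3.59 and 2.99). PIGN, of the GPI anchor pathway, had 10 and 11 against 0 and 0, RABGAP1 had 9 and 11 against 0 and 0, and the chromatin remodeling gene RSF1 had 8 and 10 against 0 and 0. ASCC3, CWF19L2, NF1, CSNK1G3, SUCLG2, PDE10A, TET3 and USP24 followed, each with 7 to 10 peaks per Anti-PSF list and 0 in both Anti-PSF-m lists. NF1 encodes a negative regulator of RAS and TET3 a DNA demethylase. Fewer of these peaks were among the 7691 highest-ranked of their list: at equal list size VPS41 had 2 and 1, PIGN 4 and 5, NF1 2 and 2, SUCLG2 0 and 0, and USP24 4 and 5. Of the 12 genes, 6 still had a peak in both Anti-PSF lists at that size (VPS41, PIGN, RABGAP1, CWF19L2, NF1 and USP24).

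The lowest ratios included genes in which 1 wide Anti-PSF peak stood against several narrow Anti-PSF-m peaks. PXMP2, a peroxisomal membrane gene, had 1 and 1 Anti-PSF peaks, against 6 and 4 Anti-PSF-m peaks (ratios -2.92 and -3.24). The Anti-PSF peaks were 3240 and 3516 bases wide, at ranks 69 and 22, and covered 18.6% and 20.2% of the gene, whereas the Anti-PSF-m peaks covered 13.5% and 8.63%. ABR had 1 and 1 against 5 and 4 peaks (ratios -2.67 and -3.24) and a covered share of 1.12% and 1.13% against 1.21% and 0.887%. MAOA, the monoamine oxidase gene, had 6 and 5 against 12 and 7, and its Anti-PSF vehicle peak of rank 19 was 9234 bases wide. STEAP2, a prostate metalloreductase with too few peaks for the ratio rule, had 1 and 1 against 4 and 2 peaks, with 11.9% and 15.1% against 11.6% and 5.41% of the gene covered. In PXMP2 and STEAP2 the Anti-PSF lists thus had fewer peaks and covered at least as much of the gene, and in ABR the covered shares were close. NEAT1 was different, with ratios of -4.71 and -2.88 and no Anti-PSF peak over its 5′ part. CLPTM1L, GNAL, BCAS3, GPI, HDAC4, SNTG2, CNTNAP2 and EXOC2 completed the lowest 12, with 2 to 7 Anti-PSF peaks and 2 to 10 Anti-PSF-m peaks per list.

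**Figure D5:**
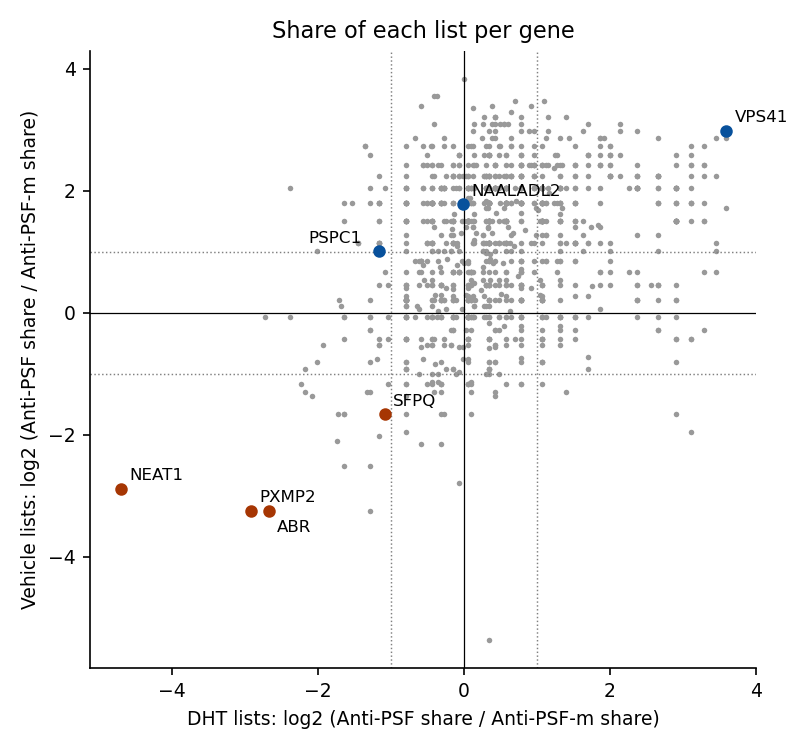
Log2 ratio of the share of the list per gene, Anti-PSF over Anti-PSF-m, in the DHT lists (horizontal) and the vehicle lists (vertical) for the 1204 genes with 10 or more peaks; points are genes, dotted lines mark ratios of 1 and -1, and labelled genes are colored blue where the vehicle ratio is above 0 and orange where it is below. NEAT1 stands at -4.71 and -2.88 and VPS41 at 3.59 and 2.99.

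The genes with the most peaks were long. NAALADL2 (946 kb) carried 64 and 70 Anti-PSF peaks and 37 and 6 Anti-PSF-m peaks. NCAM2, a neural cell adhesion gene, carried 55 and 59 against 32 and 10, LRBA 50 and 61 against 26 and 8, PPFIA2 53 and 58 against 31 and 7, and IMMP2L 57 and 52 against 18 and 6. ANK3, NLGN1, FBXL17, EPHA6, PRKD1, PPP3CA and SMYD3 each had 34 to 52 Anti-PSF peaks per list, and 11 to 25 peaks in the Anti-PSF-m DHT list and 1 to 10 in the vehicle one. MIR99AHG, a microRNA host gene, had 42 and 34 against 31 and 11 and one of the 4 best-ranked regions held by all 4 lists. Most Anti-PSF-m peaks of these genes were lower-copy, with 36 of 37 in NAALADL2, 31 of 32 in NCAM2, 15 of 18 in IMMP2L and 25 of 31 in MIR99AHG in the DHT list, and 6 of 6, 10 of 10, 5 of 6 and 11 of 11 in the vehicle list. At equal list size NCAM2 had 23 and 28 Anti-PSF peaks against 23 and 10, and PPP3CA 16 and 16 against 18 and 10, so the pairs were closer in these genes once the lists were of 1 size.

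The best-ranked genes held by a single pair at equal list size were then listed. The Anti-PSF ones were SGSM2, LRRFIP1, ANAPC4, C6orf47, AAGAB, BDP1, GLMN, SPPL3, PXDN and NUDT16, and all their Anti-PSF peaks were in lower-copy sequence. ANAPC4 encodes a subunit of the anaphase-promoting complex and BDP1 a subunit of the RNA polymerase III factor TFIIIB. With all peaks counted, SGSM2 and C6orf47 had 1 and 1 Anti-PSF peaks and LRRFIP1 3 and 1, against 0 and 0 for each. AAGAB, BDP1, GLMN, SPPL3, PXDN, NUDT16 and ANAPC4 each had 1 or 2 Anti-PSF-m DHT peaks of lower rank. The Anti-PSF-m ones were MALAT1, NEAT1, PDPK1, CDC23, PLEKHG1, CNTNAP3, DNAH9, KIAA1143, WASH3P and CDRT1. With all peaks counted, KIAA1143 had 2 and 2 Anti-PSF peaks, DNAH9 2 and 0, PLEKHG1 1 and 0 and NEAT1 0 and 1, and the other 6 had none. Of the 10, PDPK1, CDC23, PLEKHG1, CNTNAP3, DNAH9 and CDRT1 had 0 Anti-PSF-m peaks in lower-copy sequence, so all their Anti-PSF-m peaks were in high-copy windows. PDPK1, a kinase of the AKT pathway, and WASH3P have near-identical copies elsewhere in the genome, so their peaks are uncertain.

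The gene lists below were read as counts beside the shares for all genes. Those shares were 35.3% and 36.6% with a peak in the Anti-PSF DHT and vehicle lists, 23.8% and 10.505% in the Anti-PSF-m lists, 11.6% in the Anti-PSF lists alone and 0.687% in the Anti-PSF-m lists alone. Splicing regulators of the SR and CLK families had peaks in 14 and 15 of 20 genes in the Anti-PSF lists, and in 6 and 1 in the Anti-PSF-m lists. Of the 20, 7 (35.0%) were in the Anti-PSF lists alone: SRSF3, SRSF4, SRSF6, TRA2B, CLK2, CLK4 and SRPK1. SRSF5 had 3 and 3 Anti-PSF peaks against 1 and 0. Many SR genes hold a conserved exon that leads their own RNA to decay, and whether peaks lie at such exons was not tested. At equal list size 4 of the 20 were in the Anti-PSF lists alone and 0 in the Anti-PSF-m lists alone, where all genes gave 4.47% and 1.05%. Among 27 hnRNP genes, which encode abundant nuclear RNA-binding proteins, 23 and 21 carried Anti-PSF peaks and 16 and 5 Anti-PSF-m peaks, and 5 (18.5%) were in the Anti-PSF lists alone. PTBP2, a splicing repressor, had 8 and 11 against 7 and 3, SYNCRIP 8 and 10 against 4 and 0, and HNRNPU 4 and 5 against 0 and 0.

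The DBHS family and factors of 3′ end processing had Anti-PSF peaks in 15 and 15 of 22 genes and Anti-PSF-m peaks in 8 and 3, with 6 (27.3%) in the Anti-PSF lists alone. FIP1L1, a subunit of the cleavage and polyadenylation factor, had 6 and 11 Anti-PSF peaks, against 1 and 1. Paraspeckle components, which include NEAT1, had peaks in 13 and 15 of 19 genes against 11 and 6, and 2 (10.53%) were in the Anti-PSF lists alone. TAF15, an RNA-binding protein, had 6 and 7 against 2 and 1 peaks and its best peak ranked 37 and 45 against 71 and 843. The share of paraspeckle genes in the Anti-PSF lists alone was thus near that of all genes.

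Of the androgen-regulated genes, the induced ones stood above the share of all genes in 3 lists. They were also longer, with a median span of 51.5 kb (107 kb for the coregulators below) against 23.5 kb for all genes. The part of gene length in these counts was not tested. Of 42 androgen-induced genes, 31 (DHT) and 25 (vehicle) had Anti-PSF peaks, against 25 and 5 with Anti-PSF-m peaks, and the last count is near the share of all genes in that list. HOMER2 had 11 and 7 against 5 and 1, ABCC4 12 and 4 against 5 and 0, and MBOAT2 13 and 3 against 4 and 0. In the Anti-PSF lists alone were 4 of the 42 (9.52%), and SGK1, a hormone-induced kinase, was in the Anti-PSF-m lists alone with 3 and 1 peaks. KLK3, which encodes prostate-specific antigen, had 0 peaks in every list at an input level of 342 (DHT) and 43.8 (vehicle). Among 24 nuclear receptor coregulators, 21 and 22 had Anti-PSF peaks and 15 and 5 Anti-PSF-m peaks, 7 (29.2%) in the Anti-PSF lists alone. At equal list size 4 of the 24 were in the Anti-PSF lists alone and 3 in the Anti-PSF-m lists alone. All genes gave 4.47% and 1.05% there. NCOR1, a corepressor, had 13 and 12 against 4 and 0, and the corepressor gene SIN3A was in the Anti-PSF-m lists alone with 1 and 2. With lower-copy windows alone, neither SGK1 nor SIN3A was among the 6 genes left in both Anti-PSF-m lists only.

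Long genes of the neuronal type had Anti-PSF peaks in 13 and 11 of 18 genes and Anti-PSF-m peaks in 15 and 13, and 0 were in the Anti-PSF lists alone. At equal list size 5 of the 18 were in the Anti-PSF-m lists alone, beside 1.05% of all genes. Their median span was 1392 kb against 23.5 kb for all genes, and CNTNAP2 (5 and 7 against 10 and 7 peaks) had input levels of 0.638 and 0.221. Of its 10 and 7 Anti-PSF-m peaks 4 and 4 were lower-copy. Small structured RNAs had a peak in 1 and 1 of 24 genes in the Anti-PSF lists, and in 6 and 1 in the Anti-PSF-m lists. The 6 are near the 23.8% of all genes in the Anti-PSF-m DHT list, and the other counts are below the shares of all genes. RMRP, the RNA of RNase MRP, RNU11 and RNU6ATAC of the minor spliceosome, RPPH1 and SCARNA7 each had 1 peak in the Anti-PSF-m DHT list and 0 in the other 3. That peak covered 97.4% of RMRP, 94.1% of RNU11 and 58.4% of RNU6ATAC, and PSF-RIP held RMRP at log2 ratios of -5.03 and -4.77 against input. SCARNA17 had 1 peak in each of the 4 lists. These RNAs are short, with a median span of 0.258 kb, and each count rests on single peaks.

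The remaining lists had 18 genes or fewer. Nuclear and prostate long noncoding RNAs had peaks in 11 and 10 of 18 genes against 10 and 7. SCHLAP1, a prostate cancer RNA, had 19 and 20 against 12 and 2 peaks, and LINC-PINT 10 and 11 against 7 and 1. Androgen-repressed genes had 5 and 8 of 14 against 2 and 1, with BCHE, CAMK2N1 and TNFRSF21 in the Anti-PSF lists alone. These 3 are 21.4% of the 14, beside 11.6% of all genes. At equal list size 0 of the 14 were in the Anti-PSF lists alone. SnoRNA host genes had 5 and 8 of 17 against 1 and 1, in spans with a median of 3.63 kb. Markers gave the cell type: the LNCaP input held 1137 (DHT) and 153 (vehicle) reads of KLK3, 577 and 496 of HOXB13 and 182 and 108 of KRT8, which mark luminal prostate cells. TP63, KRT5, CHGA, DCN, PTPRC and PECAM1, markers of basal, neuroendocrine, stromal, leukocyte and endothelial cells, were at 0 in both. Of the other markers of these types there were 2 and 0 reads of KRT14, 7 and 5 of SYP and 11 and 19 of COL1A1. Luminal marker genes had peaks in 8 and 7 of 16 against 6 and 3, basal ones in 2 and 1 of 5 against 2 and 1, neuroendocrine ones in 0 and 1 of 7 against 0 and 0, and stromal and leukocyte ones in none of 7 in any list.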

How the data were processed

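The peak lists were called per library by the authors with MACS, per the peak names in the files, with settings not given in the sources used here. Peaks are on hg19, per the names of the deposited lists. Each peak has a position and a score as deposited by the authors, all at or above 50. The score was used to rank peaks within a list only, and ties were ordered by chromosome name and then by position. Both CLIP inputs were left out (not analysed here). RNA levels came from whole-number read counts per gene as deposited by the authors for LNCaP PSF-RIP and input (1743886 to 5568110 mapped reads, 1 library per treatment and assay). The submitters' processing notes name TopHat2 2.1.0, Bowtie2 2.2.6 and Bowtie without their roles. CLIP libraries were made with the Agilent SureSelect RNA kit after RNase digestion and membrane transfer, per the labels. A further 12 columns of per-sample values in the deposited tables were not used.

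Peaks were placed by midpoint in gene, intron and intergenic rows of the LNCaP files (17459 genes) or in GENCODE. Windows of 50 bases to either side of the midpoint were read from the GRCh37 genome, 14-mers were counted over it, and the same windows 1000 bases further along served for comparison. Overlap meant at least 1 base. Computation used Python 3.11.15, numpy 2.4.6, pandas 2.3.3, scipy 1.17.1 and pysam 0.24.0, and the counting was tested on simulated data. Named genes were SFPQ, NONO, PSPC1, NEAT1, MALAT1 and KLK3; the 12 with the most peaks per pair; the 12 highest and 12 lowest log2 ratios of shares among genes with at least 10 peaks and 1 sign in both treatments; the 10 best-ranked genes of each pair alone at equal list size; and the members of each gene list with the most peaks. The 6 lower-copy genes of the Anti-PSF-m lists, members listed as held by a single pair, and the structured RNAs were named after their values were seen. Some items that these rules name are not reported here. The members and gene lists were chosen with earlier results of these data known. Alternatives were list size, score, width, overlap and assignment rules, annotation and copy number.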

Additional observations from a re-analysis of the deposited data

Results flagged for a closer look

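PSPC1, the DBHS partner of PSF, had opposite directions in the treatments. Its log2 ratio of the share of the list, Anti-PSF over Anti-PSF-m, was -1.16 in the DHT lists (3 against 4 peaks) and 1.01 in the vehicle lists (9 against 1 peak). The difference was not tested, since each value rests on 1 list against 1, and peak counts this small move by a single peak.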

How the results depend on the processing

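Of 89 recomputed values 50 moved by at most 1 SD of the DHT and vehicle values (counts of genes, by at most 1.5 times) and 39 by more. Part of the 50 could not move, so this count does not measure how stable the results are. Cutting peaks around the midpoint leaves gene parts and gene counts as they were, and the prior count does not enter the input level. For the overlaps between the pairs, the DHT or vehicle value alone always lies within 1 SD of their mean. Cut peaks and midpoints within 100 bases are the same rule for overlaps, and both settings are in the count. None of the signed differences changed sign, and counts and shares have no sign. The exon share difference (5.99 points) was 3.67 at equal list size, 4.71 at a score of at least 100, 8.55 by any overlap and 11.02 by GENCODE. The intron difference (21.9) was 9.52 in the middle range of widths (194 to 556 bases), 10.2 in DHT, 33.5 in vehicle and 11.8 by GENCODE. Outside genes (-27.9) it was -15.8 in the middle widths, -15.5 in DHT and -40.2 in vehicle. Anti-PSF genes (2029) numbered 781 at equal size, 3052 in DHT, 5067 in vehicle and 691 with at least 2 peaks. Anti-PSF-m genes (120) numbered 184 at equal size, 15 at a score of at least 100, 57 in the middle widths, 1042 in DHT, 518 in vehicle, 6 with at least 2 peaks and 6 in lower-copy windows. Overlap of Anti-PSF-m with Anti-PSF peaks (33.7%) was 16.9% for peaks cut to 50 bases either side of the midpoint and for midpoints within 100 bases, 16.4% in the middle widths, 6.25% for 50% of both peaks and 62.4% in lower-copy windows. The reverse overlap (14.4%) was 3.17% in the middle widths, 3.33% for 50% of both, 24.7% at equal size, 8.37% at a score of at least 100, 8.36% for cut peaks and for midpoints, and 21.9% (DHT) and 6.90% (vehicle). Overlap between the Anti-PSF lists (60.1%) was 63.5% at equal size, 40.8% for such cut peaks and for midpoints, 35.1% in the middle widths and 49.7% for 50% of both. Between the Anti-PSF-m lists (12.9%) it was 21.9% in lower-copy windows and 9.05% for 50% of both, above the 6.25% shared with the Anti-PSF lists in that setting. Genes with a ratio of at least 1 (227) numbered 52 at equal size, and those at most -1 (19) numbered 4. The median input level (7.43 for Anti-PSF genes, 0.297 for Anti-PSF-m genes) was 9.35 and 4.85 with 10 or more input reads. The RIP median of Anti-PSF-m genes above all genes (0.11) was 0.22 with a prior count of 0.5. Without the filter on input reads this value depends on the prior. The cause of these shifts was not tested beyond each setting. GENCODE and copy number were added after the data were seen. No paired analysis was possible because the lists match by treatment only, with 1 list per pair in each treatment and no replicates. The differences within DHT and within vehicle are given as values, and the exact permutation test did not use this matching. Read depth of the CLIP libraries is unknown, so the absence of a peak in a shorter list does not show absence of binding.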
